A study of Mus musculus with 10 samples.

Results

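The mitochondrial ribosomal proteins are the nuclear-encoded proteins of the ribosome inside mitochondria. Their genes were taken as every gene whose platform symbol begins with Mrpl or Mrps followed by a digit, on probe sets with a single gene symbol, and where a gene had several such probe sets the brightest one on average (mean log2 signal) stood for it. This gave 76 of the 18193 genes on the array, spread over 17 chromosomes. Of these, 47 have Mrpl symbols (large subunit) and 29 Mrps symbols (mostly small subunit, with exceptions given below). The rule used symbols and mean signal and no difference between the groups, but it was set with earlier results of these data known.

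RNA of C57Bl/6 mouse spleen cells was measured on 10 one-colour Affymetrix MOE430_2 arrays. Natural killer (NK) cells, lymphocytes that kill infected or transformed cells, were flow sorted as NK1.1+CD3- cells, with a stated purity above 99%. IL-15 NK cells (3 arrays, 3 biological replicates) had been kept for 24 h with 100 ng/mL of recombinant mouse IL-15, a cytokine that activates NK cells. Resting NK cells (3 arrays, 3 biological replicates) were lysed directly after the sort, so culture for 24 h and IL-15 cannot be told apart. Bulk resting splenocytes (4 chips, 2 biological samples with 2 chips each) were the third group. NK RNA went through a 2-cycle and splenocyte RNA through a 1-cycle amplification, so amplification and cell source cannot be told apart in any comparison with splenocytes. In such bulk RNA, fewer cells of a type and less RNA per cell cannot be told apart either.

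The mitochondrial ribosome translates the few messenger RNAs encoded by mitochondrial DNA, all of which specify subunits of the respiratory chain and ATP synthase. Its proteins are made in the cytosol, imported and assembled on mitochondrial ribosomal RNA into a small subunit, which reads the message, and a large subunit, which joins amino acids. Some of the proteins have counterparts in bacterial ribosomes and others exist only in mitochondria. Activated lymphocytes are known to enlarge their mitochondria.

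The 6 NK cell markers on the array summed to 288857 to 346025 signal units on IL-15 NK arrays, 424451 to 534581 on resting NK arrays and 29049 to 46374 on splenocyte chips, and all 6 were above the detection floor on every array. The 7 T cell markers summed to 805 to 1740 on IL-15 NK arrays, 933 to 2971 on resting NK arrays and 61632 to 77695 on splenocyte chips. Of these 7 markers, 2 to 3 lay above the floor on IL-15 NK arrays and 2 to 5 on resting NK arrays, with Cd4 at the floor on every NK array. The 9 B cell markers on the array summed to 4644 to 6384 on IL-15 NK arrays, 11904 to 57486 on resting NK arrays and 316101 to 386331 on splenocyte chips. Of these 9 markers, 2 to 5 lay above the floor on IL-15 NK arrays and 5 to 9 on resting NK arrays. The 10 macrophage and monocyte markers summed to 1179 to 1873 on IL-15 NK arrays and 6136 to 27284 on resting NK arrays. On splenocyte chips they summed to 194249 to 225270. Of these 10 markers, 2 to 3 lay above the floor on IL-15 NK arrays and 7 to 8 on resting NK arrays. C1qa was at the floor on every NK array, while Lyz1 had log2 signals of 10.57 to 13.72 on resting NK arrays. The 4 erythroid markers on the array summed to 155 to 359 on IL-15 NK arrays and 185 to 405 on resting NK arrays. On splenocyte chips they summed to 112906 to 131615. The 3′ to 5′ signal ratio of control probe sets grows when transcripts are shortened. For Gapdh it was 2.899 to 3.81 on IL-15 NK arrays, 5.88 to 9.54 on resting NK arrays and 1.004 to 1.39 on splenocyte chips. For Actb it was 1.28 to 1.49 on IL-15 NK arrays, 2.27 to 6.51 on resting NK arrays and 1.34 to 1.59 on splenocyte chips. The resting NK arrays had the highest ratios for both, and by Actb the IL-15 NK arrays overlapped the splenocyte chips. These marker sums and ratios moved with the groups, and their part in the results below was not tested.

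After 24 h with IL-15, 30 of the 76 genes were higher than in resting NK cells and 0 were lower (limma, Benjamini-Hochberg adjusted p under 0.05 over the 11433 genes tested). Over all genes tested, 14.2% were called higher and 12.1% lower, 26.3% in either direction. The median log2 difference of the 76 genes, IL-15 NK minus resting NK, was 0.54, a 1.45-fold higher signal, against -0.09 over all genes tested. The difference was above 0 for 66 genes and below 0 for 10, against 44.6% above 0 over all genes tested. For 40 genes all 3 IL-15 NK arrays lay above all 3 resting NK arrays, and for 0 below, against 20.5% and 21.6% of all genes tested. All 76 passed the filter on dim signals. Leaving out single arrays gave 23 to 40 higher genes and medians of 0.45 to 0.71. The upper end came without resting replicate 2, the highest resting array for 49 of the 76 genes. Its Gapdh and Actb 3′ to 5′ ratios, 9.54 and 6.51, were the highest of all arrays. Without that array 40 genes were higher and 1 was lower, with a median difference of 0.71. Over all genes tested, leaving out single arrays gave 1122 to 1704 higher and 841 to 1537 lower calls.

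Taken array by array, the median log2 signal of the 76 genes was 11.81, 12.13 and 11.92 on the IL-15 NK arrays, 11.28, 11.48 and 11.16 on the resting NK arrays and 11.91, 11.85, 11.77 and 11.65 on the splenocyte chips. Each IL-15 NK array lay above each resting NK array, and the splenocyte chips lay above the resting NK arrays and overlapped the IL-15 NK arrays. The group means were 11.95 ± 0.16 for IL-15 NK (SD, n = 3), 11.31 ± 0.16 for resting NK (SD, n = 3) and 11.79 ± 0.11 for splenocytes (SD, 4 chips). IL-15 replicate 2 was the highest IL-15 NK array for 49 genes.

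**Figure D1:**
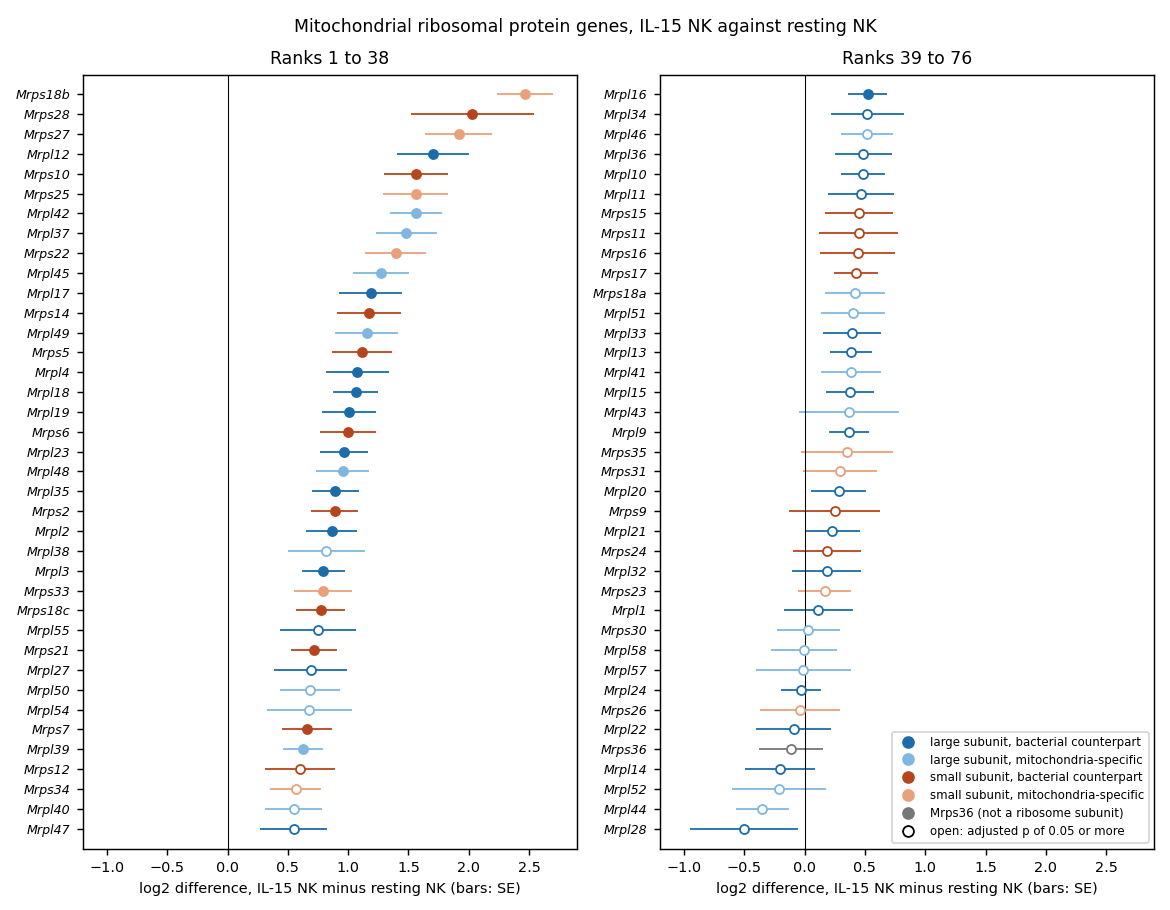
Log2 difference, IL-15 NK minus resting NK, of each of the 76 genes in rank order, with its standard error as a bar; filled points had an adjusted p under 0.05, and colours give subunit and origin. The 30 filled points lie between 0.52 and 2.47, and the lowest point, Mrpl28 at -0.50, is open.

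Among the 30 genes that rose, differences ran from 0.52 to 2.47 on the log2 scale (1.44-fold to 5.53-fold), with adjusted p between 7.9e-05 and 0.038. The 46 others were 36 with a positive and 10 with a negative difference. Of these 46, 10 had an unadjusted p under 0.05, all of them positive. The 95% interval of the difference stayed within 2-fold either way for 26 of the 46, and its upper bound lay above 2-fold for 18, so a rise of that size is not excluded for those genes.

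The largest rise was that of Mrps18b, on chromosome 17. Mrps18b is one of 3 mammalian relatives of the bacterial protein S18 and lies in the small subunit. Its log2 signal was 12.91, 12.50 and 13.32 in IL-15 NK cells, 10.49, 10.44 and 10.39 in resting NK cells and 11.50, 11.64, 11.44 and 11.11 in splenocytes. Every IL-15 NK array was above every other array, and the resting NK arrays were the lowest and closest together. The difference was 2.47 (SE 0.23, 5.53-fold, adjusted p = 7.9e-05). Mrps18c, which takes the place of S18 itself, was at 13.40, 13.15 and 12.75 in IL-15 NK cells and 12.28, 12.26 and 12.45 in resting NK cells. The groups did not overlap, and it rose by 0.77 (SE 0.20, adjusted p = 0.018), a call that was lost without IL-15 replicate 1 (0.62, adjusted p = 0.079), without IL-15 replicate 2 (0.75, 0.055) or without resting replicate 1 (0.75, 0.056). Mrps18a, which despite its symbol lies in the large subunit, differed by 0.42 (SE 0.25, adjusted p = 0.25), with overlapping groups. The 3 relatives were thus at 5.53-fold, 1.71-fold and 1.34-fold.

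Mrps28, the counterpart of the bacterial RNA-binding protein S1, had log2 signals of 10.86, 11.03 and 11.07 in IL-15 NK cells and 9.19, 10.07 and 7.62 in resting NK cells. The IL-15 NK arrays were tightly grouped and the resting arrays widely spread, without overlap. The difference of 2.03 had the largest SE of the family, 0.51 (adjusted p = 0.015), and was 3.37 without resting replicates 1 and 2 together. Mrps27, a mitochondria-specific protein of the pentatricopeptide repeat type, which binds RNA, was at 10.10, 10.50 and 10.72 in IL-15 NK cells and 8.62, 8.48 and 8.47 in resting NK cells. It rose by 1.92 (SE 0.28, 3.78-fold, adjusted p = 0.00091). In splenocytes it was at 8.86, 8.56, 9.38 and 8.70, with all 4 chips below every IL-15 NK array and overlapping the resting arrays.

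The small subunit held 3 more of the leading genes. Mrps10, a protein of the subunit's head, rose by 1.56 (SE 0.26, adjusted p = 0.002). Mrps25, a mitochondria-specific protein, also rose by 1.56 (SE 0.27, adjusted p = 0.0022). Mrps22, whose loss of function causes a mitochondrial disease of infancy in humans, rose by 1.39 (SE 0.26, adjusted p = 0.0031). Mrps14, another protein of the head, was at 13.87, 13.77 and 14.32 in IL-15 NK cells and 12.86, 12.25 and 13.32 in resting NK cells, a rise of 1.17 (SE 0.27, adjusted p = 0.0095). In none of these 4 genes did the groups overlap. The mean over all probe sets of Mrps14 differed by 0.52 (adjusted p = 0.059), and without resting replicates 1 and 2 together its difference was 0.66 (adjusted p = 0.088).

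Of the large subunit, Mrpl12 rose most. It forms the mobile stalk that receives translation factors, and its log2 signal was 12.29, 12.71 and 12.54 in IL-15 NK cells, 10.99, 11.33 and 10.12 in resting NK cells and 11.998, 12.20, 11.99 and 11.76 in splenocytes. The IL-15 NK arrays were the highest and the resting NK arrays the lowest, with a difference of 1.70 between them (SE 0.30, 3.25-fold, adjusted p = 0.0025). Its neighbours at the stalk base did not pass. Mrpl10, to which the stalk attaches, differed by 0.48 (SE 0.18, adjusted p = 0.077), with IL-15 NK arrays at 12.13, 12.02 and 12.05 all above the resting arrays at 11.70, 11.55 and 11.50. Mrpl11 differed by 0.46 (SE 0.27, adjusted p = 0.24) on its brightest probe set, and another of its probe sets by 1.33 (adjusted p = 0.00075). Mrpl54, listed with the stalk base, had 2 of 3 resting arrays over the floor and differed by at least 0.68 (adjusted p = 0.19).

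Other large-subunit genes that rose included Mrpl42, at 13.52, 13.55 and 13.32 in IL-15 NK cells and 12.19, 11.47 and 12.04 in resting NK cells (difference 1.56, SE 0.22, adjusted p = 0.00067). Its arrays did not overlap, and the mean over its probe sets differed by 0.78 (adjusted p = 0.013). Mrpl37, a mitochondria-specific protein, was at 10.81, 10.94 and 11.09 in IL-15 NK cells and 9.69, 9.46 and 9.24 in resting NK cells (difference 1.48, SE 0.25, adjusted p = 0.0021). Mrpl45, which ties the ribosome to the inner membrane beside the tunnel through which the new protein leaves, rose by 1.27 (SE 0.23, adjusted p = 0.0031). Mrpl17, at the rim of the same tunnel, rose by 1.19 (SE 0.26, adjusted p = 0.0076) on its brightest probe set, while the mean over its 3 probe sets differed by 0.22 (adjusted p = 0.36). Mrpl18 and Mrpl48, proteins of the central protuberance at the top of the subunit, rose by 1.06 (SE 0.18, adjusted p = 0.0023) and 0.95 (SE 0.22, adjusted p = 0.0095). The call of Mrpl48 was lost without IL-15 replicate 3 (0.80, adjusted p = 0.055) and for the mean over its 3 probe sets (0.41, adjusted p = 0.14).

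The genes with the lowest values were not called. Mrpl28 was at 12.95, 11.58 and 11.97 in IL-15 NK cells and 13.19, 11.61 and 13.21 in resting NK cells, a difference of -0.50 (SE 0.45, adjusted p = 0.45). The groups overlapped, and resting replicate 2 stood apart from the other resting arrays. Without that array the difference was -1.03 (adjusted p = 0.042), the single lower call named above. Mrpl44, a protein with an RNase III-type fold at the exit tunnel, differed by -0.35 (SE 0.22, adjusted p = 0.27). Mrps30, a large-subunit protein despite its symbol, was at 11.29, 12.02 and 11.12 in IL-15 NK cells and 11.32, 11.51 and 11.51 in resting NK cells, a difference of 0.03 (SE 0.26). Mrps36, which is now counted as a component of the alpha-ketoglutarate dehydrogenase complex and not of the ribosome, differed by -0.11 (SE 0.27). Mrps12, a protein of the decoding site, differed by 0.60 (SE 0.29, adjusted p = 0.16), and by 0.93 (adjusted p = 0.014) without resting replicate 2. Mrpl38, the largest difference that did not pass, was at 0.82 (SE 0.32, adjusted p = 0.087), and at 1.04 (adjusted p = 0.033) without the same array.

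Signals of the brightest and dimmest probe sets were followed too, without setting one gene's level against another's. Mrpl39, a protein at the exit tunnel rim, was at 14.51, 14.27 and 14.21 in IL-15 NK cells and 13.57, 13.76 and 13.78 in resting NK cells, without overlap. It rose by 0.63 (SE 0.17, adjusted p = 0.019), a call that was lost without IL-15 replicate 1 (0.54, adjusted p = 0.082) or resting replicate 1 (0.56, adjusted p = 0.076) and in the fit without trend (adjusted p = 0.051), while the mean over its probe sets differed by 1.04 (adjusted p = 0.0049). Mrpl51, a mitochondria-specific protein, was at 13.96, 14.11 and 13.92 in IL-15 NK cells and 13.17, 14.27 and 13.33 in resting NK cells. Resting replicate 2 was the highest of the 6 arrays, the difference was 0.40 (SE 0.27, adjusted p = 0.29), and without that array it was 0.74 (adjusted p = 0.0083). Mrpl1, a large-subunit protein with a bacterial counterpart, differed by 0.11 (SE 0.28, adjusted p = 0.81).

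**Figure D2:**
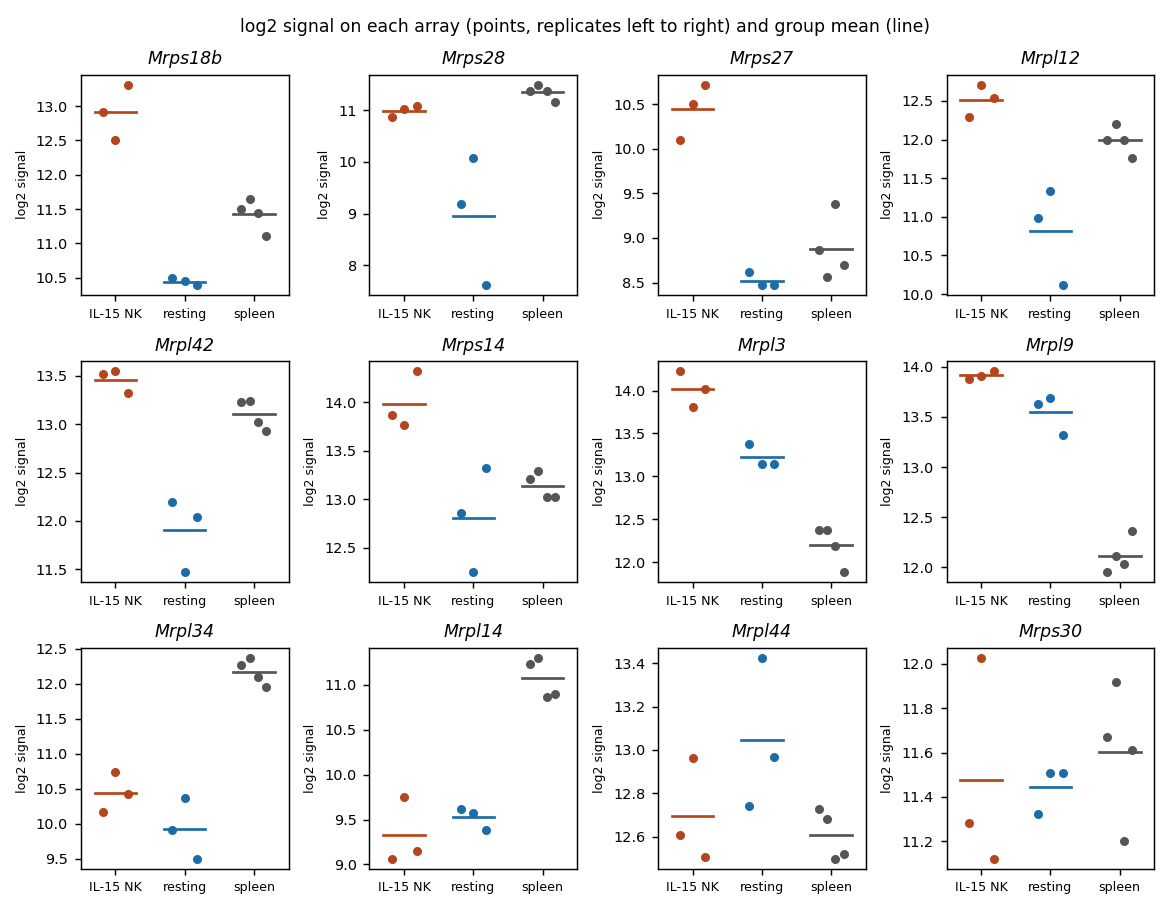
Log2 signal of 12 genes on each array, with IL-15 NK left, resting NK in the middle and splenocytes (spleen) right; points are arrays and lines are group means, and each panel has its own axis. Mrps18b lies highest in IL-15 NK and lowest in resting NK cells, Mrpl9 lies higher in both kinds of NK cells than in splenocytes, and Mrpl34 lies lower in both.

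Sorted by subunit and origin, genes of all 4 classes were called higher and none was called lower. The counts below stand beside 14.2% higher and 12.1% lower over all genes tested. Differences were below 0 for 4 large-subunit genes with a bacterial counterpart and 4 mitochondria-specific ones. In the small subunit they were below 0 for 0 and 1. Of 29 large-subunit genes with a bacterial counterpart, 10 rose (median difference 0.49), and of 20 mitochondria-specific large-subunit genes, 6 rose (median 0.53). Of 16 small-subunit genes with a bacterial counterpart, 9 rose (median 0.69), and of 10 mitochondria-specific small-subunit genes, 5 rose (median 0.68). By symbol, 14 of 29 Mrps and 16 of 47 Mrpl genes rose, with medians of 0.60 and 0.52. The difference between these symbol series was not tested. Within the large subunit, 1 of 4 stalk genes, 2 of 7 central protuberance genes and 4 of 8 genes at the exit tunnel rim rose. Mrps36 is in none of the 4 classes.

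**Figure D3:**
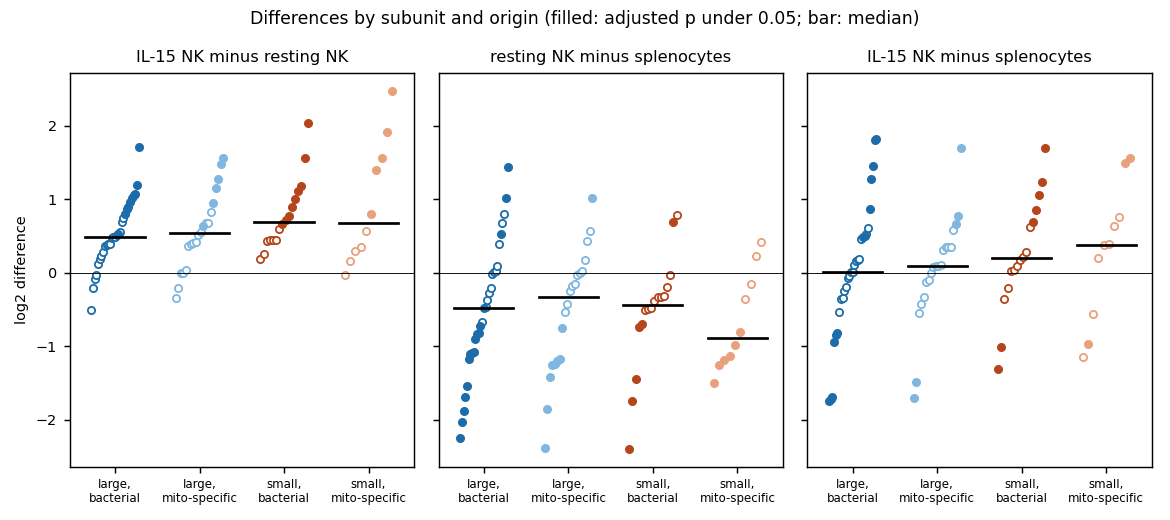
Log2 differences of the genes by subunit and origin in the 3 comparisons; each point is a gene, filled where its adjusted p was under 0.05, and the bar is the class median. In IL-15 NK minus resting NK the medians are 0.49, 0.53, 0.69 and 0.68 from left to right, and in resting NK minus splenocytes all 4 lie below 0.

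Resting NK cells had lower signals than splenocytes for 34 of the 76 genes and higher signals for 5, while 37 did not pass. Over the 12938 genes tested in that comparison, 21.5% were lower and 17.1% higher, 38.6% in either direction. The difference was above 0 for 18 of the 76 genes, against 47.0% of all genes tested. The median difference, resting NK minus splenocytes, was -0.48, against -0.06 over all genes tested. For 42 genes every resting NK array lay below every splenocyte chip, and for 8 above, against 27.0% and 22.7% of all genes tested. Without splenocyte chip 1 the count of higher genes was 8, in a fit that took the remaining chips as independent samples. Resting replicates 1 and 2, the resting arrays with the most B cell marker signal, were also left out together, as given below.

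The genes lowest in resting NK cells were from both subunits. Mrps28 was 5.25-fold lower (-2.39, SE 0.59, adjusted p = 0.013). Mrpl54 was at least 5.23-fold lower (-2.39, SE 0.38, adjusted p = 0.0014). Mrpl34, the counterpart of a small bacterial large-subunit protein, was at 9.91, 10.37 and 9.50 in resting NK cells and 12.26, 12.36, 12.10 and 11.95 in splenocytes. All 3 resting arrays lay more than a log2 unit under the lowest chip, and the difference was -2.24 (SE 0.29, adjusted p = 0.00054). Mrpl17 differed by -2.04 (SE 0.24, adjusted p = 0.00027). Mrpl32, a protein that is cut by a mitochondrial protease before it joins the ribosome, differed by -1.88 (SE 0.28, adjusted p = 0.0012).

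The 5 genes higher in resting NK cells than in splenocytes were led by Mrpl9, at 13.63, 13.69 and 13.32 against 11.95, 12.12, 12.03 and 12.36. Its arrays did not overlap (1.43, SE 0.15, adjusted p = 0.00021). Mrpl3, which reaches towards the site where peptide bonds form, was at 13.38, 13.14 and 13.14 in resting NK cells and 12.38, 12.37, 12.18 and 11.89 in splenocytes (1.02, SE 0.18, adjusted p = 0.0022). Mrpl50 differed by 1.02 (SE 0.27, adjusted p = 0.016), and Mrpl24, a protein at the exit tunnel, by 0.52 (SE 0.16, adjusted p = 0.027). The call of Mrpl24 was lost under quantile normalization (0.37, adjusted p = 0.055) and without resting replicates 1 and 2 together (0.35, adjusted p = 0.13). Mrps6 differed by 0.69 (SE 0.24, adjusted p = 0.049), at the edge of the threshold. Its call was lost without resting replicate 2 (0.45, adjusted p = 0.064), without resting replicates 1 and 2 together (0.50, adjusted p = 0.10), with a lower floor (0.051), without the filter on dim genes (0.11) and without trend (0.060). Other probe sets of these genes do not all share the direction, as given below.

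IL-15 NK cells were higher than splenocytes for 17 of the 76 genes and lower for 12, and 47 did not pass. Over the 12465 genes tested, 20.8% were higher and 23.5% lower, 44.3% in either direction. The difference was above 0 for 47 of the 76 genes, against 45.2% of all genes tested. The median difference, IL-15 NK minus splenocytes, was 0.10, against -0.10 over all genes tested. Arrays did not overlap for 25 genes that were higher and 16 that were lower, against 27.8% and 29.8% of all genes tested. Without IL-15 replicate 1, the count of lower genes was 7.

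Both splenocyte comparisons share the 4 chips, and both NK comparisons share NK arrays, so values are given side by side. Mrpl3 was 3.51-fold higher in IL-15 NK cells (1.81, SE 0.18, adjusted p = 9.4e-05). Mrpl9 was 3.48-fold higher (1.80, SE 0.15, adjusted p = 5.8e-05) on its brightest probe set, while another of its probe sets was at -1.01 (adjusted p = 0.035). Mrpl50 was higher by 1.70 and Mrps6 by 1.70. Mrps27 was higher by 1.56 (SE 0.26, adjusted p = 0.0019), where its resting NK value of -0.35 against splenocytes had not passed. Mrpl37 and Mrps22, which were lower in resting NK cells than in splenocytes by 1.41 and 1.19, differed from splenocytes by 0.07 (adjusted p = 0.83) and 0.20 (adjusted p = 0.55) after IL-15. Their SEs were 0.23 and 0.25, and a p above the threshold does not show that levels were equal.

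Some genes stayed below splenocytes in both kinds of NK cells. Mrpl14, which lies at the face between the subunits, was at 9.06, 9.75 and 9.15 in IL-15 NK cells, 9.62, 9.58 and 9.39 in resting NK cells and 11.23, 11.29, 10.87 and 10.90 in splenocytes. Both NK groups lay below all chips, by 1.75 for IL-15 NK (adjusted p = 0.0013) and 1.55 for resting NK (adjusted p = 0.0029), and IL-15 NK differed from resting NK by -0.20 (adjusted p = 0.65). Mrpl34 was lower by 1.72 in IL-15 NK cells (adjusted p = 0.0018), Mrpl32 by 1.70 (adjusted p = 0.0017) and Mrpl54 by 1.71 (adjusted p = 0.0064). Mrpl43 was lower by 1.48 (SE 0.47, adjusted p = 0.035), a call that was lost without IL-15 replicate 1 (adjusted p = 0.091), replicate 2 (0.052) or replicate 3 (0.076).

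Of the 76 genes, 34 had 1 probe set and 42 had several, 156 in all. In the comparison of IL-15 NK with resting NK, 37 genes had other tested probe sets, 67 in number. Of these 67, 44 had the sign of the brightest one, 9 were higher and 0 were lower, so no gene was called in opposite directions. Over all genes tested, 14.2% were higher and 12.1% lower. Other tested probe sets existed for 14 genes called on the brightest one, and for 3 of these all others had the same call. The 34 genes with 1 probe set gave 15 higher calls and a median of 0.56, and the 42 with several gave 15 and 0.49.

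Against splenocytes the probe sets of a gene disagreed more often. Between resting NK cells and splenocytes, 31 of 68 other probe sets had the sign of the brightest. Of these 68, 7 were higher and 17 lower, and 4 genes were called in opposite directions. Over all genes tested in that comparison, 17.1% were higher and 21.5% lower. Mrpl50 was at 1.02 on its brightest and -1.82 (adjusted p = 0.00053) on its other probe set, and Mrps6 at 0.69 and -1.64 (adjusted p = 0.012). Mrpl9 was at 1.43, 1.07 and -1.27 on its 3 probe sets. For the mean over a gene's probe sets, 4 of the 5 genes called higher in resting NK cells no longer passed: Mrpl9 was at 0.41 (adjusted p = 0.077), Mrpl3 at 0.44 (0.057), Mrpl50 at -0.40 (0.066) and Mrps6 at -0.47 (0.22). On the same scale the lower genes Mrpl54, Mrpl17 and Mrpl34 were at -1.25, -0.81 and -0.74, all still past the threshold. For IL-15 NK minus splenocytes the means were 0.97 for Mrpl3, 0.73 for Mrpl9, 0.61 for Mrpl50, -0.85 for Mrpl34 and -0.91 for Mrpl54, all past the threshold, and 0.63 for Mrps6, which was not (adjusted p = 0.10). For IL-15 NK minus resting NK, the probe sets of Mrpl50 were at 0.68 and 1.35 and those of Mrps6 at 1.001 and 1.21. The brightest probe set of Mrpl50 did not pass (adjusted p = 0.067), but did without IL-15 replicate 2 (0.85, adjusted p = 0.046) or resting replicate 3 (0.83, adjusted p = 0.046). Mrpl44 was at -0.35 on its brightest and 1.06 (adjusted p = 0.013) on another probe set in that comparison.

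**Figure D4:**
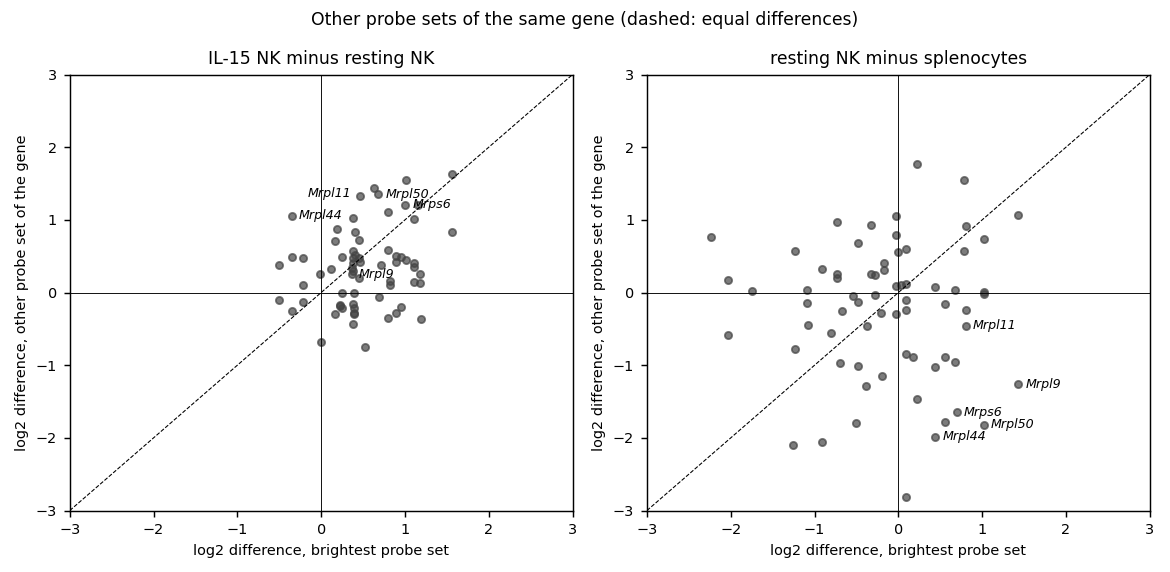
Log2 difference of each other tested probe set of a gene against that of its brightest probe set, for IL-15 NK minus resting NK (left) and resting NK minus splenocytes (right); the dashed line marks equal differences and names are given for 5 genes. On the left 44 of 67 points share the sign of the brightest probe set, and on the right 31 of 68.

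Further genes of the mitochondrial translation system were read from the same fit, in lists chosen with earlier results of these data known. None of their members was called lower after IL-15, and their counts stand beside 14.2% higher and 12.1% lower over all genes tested. Of 4 ribosome subunits with symbols outside the Mrpl and Mrps series, 1 rose, namely Chchd1, a small-subunit protein, at 12.59, 12.91 and 12.64 in IL-15 NK cells and 11.30, 11.92 and 11.29 in resting NK cells (1.21, SE 0.22, adjusted p = 0.0032). Dap3, the small-subunit protein that binds GTP, differed by 0.05 (adjusted p = 0.89). Of 23 genes for assembly and ribosomal RNA modification, 3 rose (13.0%, not above the 14.2% of all genes), with a list median of 0.11. They were Mrm3, a methyltransferase of the large ribosomal RNA (1.45, adjusted p = 0.0037), Rcc1l, a large-subunit assembly factor (1.43, adjusted p = 0.0053), and Noa1, a small-subunit assembly GTPase (1.15, adjusted p = 0.02). The call of Noa1 was lost without any 1 of 5 arrays, all but resting replicate 2 (adjusted p 0.054 to 0.065).

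Of 11 translation factors 4 rose, with a list median of 0.41. Gfm1, the elongation factor that moves the ribosome along the message, rose by 1.16 (adjusted p = 0.0047), and Oxa1l, which inserts new proteins into the inner membrane, by 1.05 (adjusted p = 0.008). Neither call held for the mean over the gene's probe sets, which was 0.49 for Gfm1 (adjusted p = 0.15) and 0.25 for Oxa1l (adjusted p = 0.47). Mrrf, the recycling factor, and Tufm, the elongation factor that brings transfer RNA, passed at 0.95 and 0.94 (adjusted p = 0.028 and 0.047). Mrrf lost its call without IL-15 replicate 1 (adjusted p = 0.063) or 2 (0.105) and without resting replicate 1 (0.080) or 3 (0.057). Tufm lost it without any array but resting replicate 2 (0.079 to 0.13), and was at 1.54 without resting replicates 1 and 2 together. Of 13 genes of mitochondrial DNA transcription and RNA 3 rose, with a median of 0.54, and Lrpprc, which stabilises mitochondrial messages, led them at 1.37 (adjusted p = 0.0026). Supv3l1 and Pnpt1, which degrade mitochondrial RNA together, passed at 0.90 and 0.80 (adjusted p = 0.02 and 0.033). Supv3l1 lost its call without IL-15 replicate 1 (0.061) or 3 (0.080) or resting replicate 3 (0.054), and Pnpt1 without IL-15 replicate 1 (0.11) or 3 (0.115) or resting replicate 1 (0.066) or 2 (0.070). The means over their probe sets were 0.34 (adjusted p = 0.24) and -0.0568 (adjusted p = 0.86). Of 10 activators of mitochondrial gene expression 2 rose, with a median of -0.01. These were Myc at 1.41 (adjusted p = 0.002) and Pprc1, a coactivator related to PGC-1, at 1.29 (adjusted p = 0.0025).

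**Figure D5:**
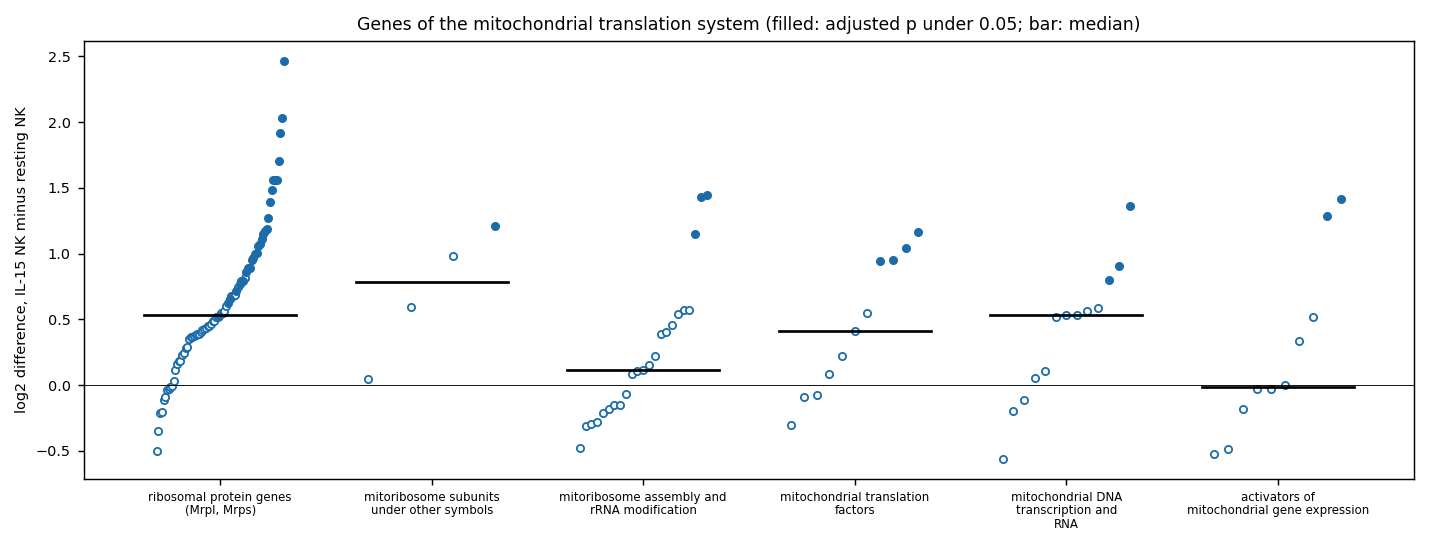
Log2 difference, IL-15 NK minus resting NK, for the Mrpl and Mrps genes and 5 lists of related genes; each point is a gene, filled where its adjusted p was under 0.05, and the bar is the list median. The medians are 0.54 for the Mrpl and Mrps genes, 0.79, 0.11, 0.41, 0.54 and -0.01 from left to right.

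The cytosolic ribosomal protein genes found by symbol on single-symbol probe sets numbered 46, which may not be all genes of that family. The 44 of them tested had a median IL-15 NK minus resting NK difference of -0.04, beside 0.54 for the mitochondrial family. Of these 44, 5 were higher (11.4%) and 2 lower (4.55%), against 14.2% and 12.1% of all genes tested. Against splenocytes their medians were -0.59 for resting NK and -0.63 for IL-15 NK cells, beside -0.48 and 0.10 for the mitochondrial family. The difference between the 2 families was not tested.

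Promoter windows of 67 of the 76 genes, each from 250 bases before to 50 bases after a transcription start (RefSeq, GRCm38.p6), gave 73 windows. Both strands were searched for the NRF1 motif (GCGC, any base, then TGCGC), the ETS motif CCGGAAG, the YY1-type motif AAGATGGCG and the E-box CACGTG, and none of the 59 matches overlapped a match of another motif. NRF1 and the ETS factor GABP are known activators of genes for mitochondrial proteins, and the E-box is bound by MYC and related factors. The NRF1 motif was in 16.4% of the 73 windows and 4.6% of all 32851 windows, and the ETS motif in 34.2% and 8.86%. The YY1-type motif was in 11% and 1.4%, and the E-box in 9.59% and 7.15%, with 3 of the E-box windows being overlapping windows of Mrpl2. The windows were also richer in G and C, with a median of 58.7% against 52.7%. By outcome, 5 of 27 risen and 7 of 40 other genes held the NRF1 motif, 10 of 27 and 15 of 40 the ETS motif, 4 of 27 and 4 of 40 the YY1-type motif, and 3 of 27 and 2 of 40 the E-box. These shares were not tested against each other. A match is a description of the letters and not of a bound site.

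Windows are printed for the 3 genes with the largest rise among those with a match, for Mrpl45 with 3 NRF1 motifs and for Mrpl44. They run 5′ to 3′ on the gene's strand, with the motifs in capitals, on either strand. Mrpl44 has the NRF1 motif and did not rise on its brightest probe set (-0.35), while another of its probe sets was at 1.06 (adjusted p = 0.013). The windows were chosen after the values were seen. Mrps18b lies at chr17:35916391-35916690 on the minus strand and has an ETS motif 43 bases after the start. Mrps27 lies at chr13:99344536-99344835 on the plus strand, with an ETS motif 48 bases before and a YY1-type motif 14 bases after the start. Mrpl12 lies at chr11:120484387-120484686 on the plus strand, with an NRF1 motif 81 bases before the start. Mrpl45 lies at chr11:97315466-97315765 and Mrpl44 at chr1:79775768-79776067, both on the plus strand.
Mrps18b: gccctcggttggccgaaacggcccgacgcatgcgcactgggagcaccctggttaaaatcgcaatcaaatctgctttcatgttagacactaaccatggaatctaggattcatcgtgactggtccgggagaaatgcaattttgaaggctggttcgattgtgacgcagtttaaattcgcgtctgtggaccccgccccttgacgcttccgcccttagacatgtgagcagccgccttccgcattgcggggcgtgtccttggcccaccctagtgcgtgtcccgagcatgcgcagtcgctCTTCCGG
Mrps27: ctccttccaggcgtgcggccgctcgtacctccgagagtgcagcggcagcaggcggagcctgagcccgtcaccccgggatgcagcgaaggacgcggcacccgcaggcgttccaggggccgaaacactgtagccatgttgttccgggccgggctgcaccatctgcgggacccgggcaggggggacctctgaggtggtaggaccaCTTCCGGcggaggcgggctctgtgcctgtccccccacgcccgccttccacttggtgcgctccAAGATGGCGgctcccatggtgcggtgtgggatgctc
Mrpl12: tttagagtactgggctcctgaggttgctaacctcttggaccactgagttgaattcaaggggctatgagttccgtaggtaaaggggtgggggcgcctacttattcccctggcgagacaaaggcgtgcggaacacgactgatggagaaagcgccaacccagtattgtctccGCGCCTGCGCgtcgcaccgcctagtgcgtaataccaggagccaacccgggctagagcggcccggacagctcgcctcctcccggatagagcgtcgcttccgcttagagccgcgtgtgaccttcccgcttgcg
Mrpl45: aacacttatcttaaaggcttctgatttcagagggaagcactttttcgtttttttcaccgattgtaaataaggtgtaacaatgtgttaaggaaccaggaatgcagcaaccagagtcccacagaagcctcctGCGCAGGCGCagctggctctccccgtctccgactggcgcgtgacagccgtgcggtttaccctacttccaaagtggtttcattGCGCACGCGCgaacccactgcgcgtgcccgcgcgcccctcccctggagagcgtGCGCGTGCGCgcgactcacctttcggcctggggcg
Mrpl44: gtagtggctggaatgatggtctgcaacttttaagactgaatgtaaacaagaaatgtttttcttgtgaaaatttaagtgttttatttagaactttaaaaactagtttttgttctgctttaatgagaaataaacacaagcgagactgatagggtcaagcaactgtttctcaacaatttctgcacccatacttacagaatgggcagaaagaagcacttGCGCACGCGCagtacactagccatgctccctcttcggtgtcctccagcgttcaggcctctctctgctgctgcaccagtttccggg

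Many of these genes had a promoter window that overlapped the window of a neighbour read from the other strand. The window of 23 of the 67 genes (34.3%) overlapped that of a gene on the opposite strand, against 11.9% of all 27025 genes with a window. Of those 23 genes 9 rose after IL-15, beside 30 of the 76 in the whole family. Of the 19 neighbours tested outside the family 4 rose and 1 fell, beside 14.2% higher and 12.1% lower over all genes tested. Whether sharing a window goes with a rise was not tested. In 2 pairs both genes rose. These were Mrpl18 (1.06) with Tcp1, a subunit of the cytosolic CCT chaperonin (1.36, adjusted p = 0.00069), and Mrps18c (0.77) with Helq, a DNA repair helicase (1.09, adjusted p = 0.031). In 1 pair the directions were opposite: Mrpl2, a protein of the large subunit's core, rose by 0.86 (adjusted p = 0.014) while Klc4, a kinesin light chain, fell by 1.53 (adjusted p = 0.0016). Eme1, a DNA repair nuclease subunit, and Ska3, a kinetochore protein, rose by 2.32 and 1.75 beside Mrpl27 at 0.69 (adjusted p = 0.12) and Mrpl57 at -0.01 (adjusted p = 0.99). Mrps11 and Mrpl46, one of each subunit, share a window on chromosome 7 over 141 bases and differed by 0.45 and 0.52, neither of which passed. The pairs were found by position, and those named were chosen after their values were seen.

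The windows of Mrpl18, whose partner rose too, and of Mrpl2, whose partner fell, are given 5′ to 3′ on the strand of the Mrpl gene, with motifs in capitals. Mrpl18 lies at chr17:12916042-12916341 on the minus strand and shares 263 bases with the window of Tcp1. Mrpl2 lies at chr17:46645971-46646270 on the plus strand, the first of its 3 windows, and shares 240 bases with that of Klc4. The window of Mrpl18 holds an ETS motif and that of Mrpl2 an E-box.
Mrpl18: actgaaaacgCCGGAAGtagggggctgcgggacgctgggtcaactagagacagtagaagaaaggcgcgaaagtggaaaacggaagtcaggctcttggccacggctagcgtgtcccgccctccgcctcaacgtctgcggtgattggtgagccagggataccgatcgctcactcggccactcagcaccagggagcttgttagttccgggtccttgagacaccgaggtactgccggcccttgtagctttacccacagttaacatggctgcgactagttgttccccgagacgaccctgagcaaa
Mrpl2: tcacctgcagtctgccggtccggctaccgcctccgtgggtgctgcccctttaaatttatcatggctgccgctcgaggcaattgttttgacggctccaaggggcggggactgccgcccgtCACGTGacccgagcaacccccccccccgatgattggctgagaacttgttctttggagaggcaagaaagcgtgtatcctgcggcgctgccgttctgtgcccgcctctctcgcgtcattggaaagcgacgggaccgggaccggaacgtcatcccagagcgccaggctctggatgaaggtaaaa

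With every gene on the array tested, 23 of the 76 passed, and Mrps28 (adjusted p = 0.17), Mrpl12 (0.057), Mrps14 (0.11), Mrps6 (0.079) and Mrps18c (0.079) no longer did. Of the related genes, Oxa1l (0.052), Noa1 (0.11), Mrrf (0.093), Tufm (0.23) and Pnpt1 (0.10) lost their calls in that fit. Without resting replicates 1 and 2 together, 26 genes rose, of which 22 were among the 30, and the median difference was 0.76, with Mrps18c (adjusted p = 0.12) among those lost; the lone resting array was then assumed to vary like the IL-15 NK arrays.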

How the data were processed

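The authors deposited linear signal intensity values, 1 for each probe set of each array. The submitters' processing notes name GCOS 1.4, and how it summarised and scaled the arrays is not stated in the sources used. The 2% trimmed mean was 1500 on every array, so no further scaling was applied. Such scaling hides changes in total RNA per cell.

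Signals under 179.85, the median over arrays of the 40th percentile, were raised to that floor before taking log2. Of 45101 probe sets, 34945 had 1 gene symbol, 932 several and 9160 none, and 64 were controls. A gene entered a comparison if at least 3 of its arrays exceeded the floor. The test was limma (version 3.58.1, R 4.3.3; eBayes with trend, 2-sided, Benjamini-Hochberg). The NK comparison used the 6 NK arrays. With splenocytes all 10 arrays shared 1 variance, chips were averaged under each of 3 possible pairings, and the largest p was kept. Fits without a splenocyte chip could not use the pairings and took the remaining chips as independent samples. The number of arrays limits the precision. The procedure was tested on simulated data. Promoter windows came from RefSeq. Alternatives covered background floor, scaling, probe set choice and left-out arrays.

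The members, lists and rules were chosen with earlier results of these data known. Genes are named for the largest differences in each comparison (12 for NK, 5 each way against splenocytes), the 5 brightest and 5 dimmest probe sets, the 2 largest differences in each structural group, a set of structural landmarks, and up to 4 passing genes of each related list.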

Additional observations from a re-analysis of the deposited data

Results flagged for a closer look

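Of 53 values checked within the 4 splenocyte chips, 2 had a chip far from the other 3, where chance gives about 1 in 20. Mrpl55, a large-subunit protein, had a log2 signal of 9.80 on splenocyte chip 4, against 10.65 to 10.76 on the other chips, a gap of 0.888 of the whole range. Mrrf, the recycling factor, had 10.49 on the same chip, against 10.80 to 10.85, a gap of 0.852 of the range.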

How the results depend on the processing

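For IL-15 NK minus resting NK, the count of higher genes ran from 23 to 40 when single arrays were left out, that of lower genes from 0 to 1 and the median from 0.45 to 0.71. Without resting replicates 1 and 2 together, an alternative chosen after seeing the data, the median was 0.76. Against splenocytes, leaving out single arrays gave 5 to 8 higher and 30 to 38 lower genes and medians of -0.62 to -0.43 for resting NK. For IL-15 NK it gave 13 to 22 higher and 7 to 14 lower genes and medians of 0.03 to 0.19. Fits without a splenocyte chip took the remaining chips as independent samples, so these ranges of counts mix a lost chip with that change. Without resting replicates 1 and 2 together, 3 genes were higher in resting NK. With probe sets tested singly, 12 probe sets were higher in resting NK (median -0.31), and 31 were higher and 19 lower in IL-15 NK. These are counts of probe sets and not of genes. Besides the brightest probe set of each gene, 68 others were tested for resting NK and 71 for IL-15 NK. The share called over all probe sets is not given, so these counts cannot be set beside the counts of genes. With the mean over the probe sets of a gene, 2 genes were higher in resting NK, and Mrpl50 (-0.40), Mrps6 (-0.47) in resting NK, Oxa1l (-0.0550) in IL-15 NK against splenocytes and Pnpt1 (-0.0568) in IL-15 NK against resting NK changed sign. The cause was not tested.

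The design text speaks of pairs of NK samples without saying that the replicate numbers mark them. Deviations of same-numbered arrays correlated at 0.10, 0.28 and 0.07, and those of differently numbered arrays at -0.22 to 0.15, so pairing by number is not settled. With the replicate block 33 genes were higher and 0 lower, all 30 among them. Quantile normalization moved the median of all genes to 0.05 in resting NK and 0.11 in IL-15 NK against splenocytes.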
